A study of Mus musculus with 4 samples.

Results

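Foxp3 regulatory T cells (Tregs), chosen by their measured UMI counts, were taken from single-cell RNA profiles of sorted CD45+ immune cells of mouse skin and skin tumors. A cell was counted as a Treg where it held at least 1 Foxp3 UMI (unique molecular identifier, 1 captured RNA molecule), at least 1 UMI of Cd3e, Cd3d or Trac, no Cd8a or Cd8b1 UMI, at most 1 Csf1r UMI and at most 2 UMIs of Top2a and Mki67 together, in a cell of at least 1000 UMIs with at most 15% mitochondrial UMIs. By this rule 277 of 13124 filtered cells (of 14795 deposited barcodes) were Tregs: 54 and 55 in the control skins and 103 and 65 in the tumors. The genes of the rule describe how the cells were chosen, and no test below rests on them.

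The control samples were skins of uninoculated C57BL/6 mice. The tumor samples were skin tumors grown in C57BL/6 mice from the 2323 cell line, a mouse skin tumor line derived from an engineered mouse whose alleles include K14rtTA, tetOCre and P53-/-, of which 0.2 M cells had been injected into the flank. Injected mice were of both sexes and 8 to 10 weeks old, and the mutations belong to the injected line. The Tregs of every library held no Xist UMI and held RNA of the Y-linked gene Ddx3y, at 229, 219, 201 and 227 CPM (counts per 1000000 UMIs) in control replicates 1 and 2 and tumor replicates 1 and 2 in turn, and none of 4 sex genes tested passed between the groups (edgeR and DESeq2, and 0 at an unadjusted p under 0.05). Both tissues were digested with collagenase IV for 2 h at 37 °C before CD45+, DAPI-negative cells were sorted and 10x Genomics 3′ libraries made. There were 2 libraries per group. The labels do not say how many mice stand behind a library, so p-values measure the spread between these libraries only.

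Tregs are CD4 T cells that restrain other immune cells, and the transcription factor Foxp3 sets and keeps their identity. They hold high levels of the interleukin 2 receptor and of the inhibitory receptor Ctla4, and many carry the transcription factor Helios, encoded by Ikzf2. Tregs that live in skin differ from those that circulate: tissue cells often carry the interleukin 33 receptor (Il1rl1) and the integrin chain CD103 (Itgae), while circulating cells carry transcription factors such as Lef1 and Satb1.

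The gated cells carried the named markers. An Ikzf2 UMI was found in 94.4 and 90.9% of control Tregs and in 97.1 and 100% of tumor Tregs. A Ctla4 UMI was found in 87 and 98.2% of control Tregs and in 94.2 and 96.9% of tumor Tregs. Foxp3 (ENSMUSG00000039521, GRCm38 chromosome X:7573644-7595245) stood at 354 and 311 CPM in control Tregs and 378 and 293 CPM in tumor Tregs, where CPM is taken over the Tregs summed in a library, after scaling for composition (TMM). These Foxp3 levels overlapped between the groups. A Cd4 UMI was detected in 147 of the 277 cells. Exactly 1 Foxp3 UMI was seen in 15 and 21 control Tregs and in 40 and 23 tumor Tregs, so these cells lay just inside the rule. Of 599 filtered cells with a Foxp3 UMI, 101 were left out for having no CD3 UMI, 75 of the others for a CD8 UMI, 105 of those left for at least 2 Csf1r UMIs and 41 of the remainder for going over the limit on cycling genes, each cell being counted at the first step it failed.

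A Foxp3 UMI was also found outside the gate. Among macrophages, which should lack Foxp3, a UMI was seen in 2.20 and 3.07% of cells in the controls and in 1.05 and 8.64% in the tumors, at median depths of 24021, 18953, 19378 and 20763 UMIs. Tregs were shallower, at medians of 7886.5 and 8329 UMIs in the controls and 6370 and 6655 UMIs in the tumors. Tumor replicate 2 thus had the highest Foxp3 background at full depth. The libraries shared 1 to 7 cell barcodes per pair, and none of the shared barcodes was a Treg.

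A feature of the control libraries touches several results below. A UMI of Trdc, the constant chain of the γδ T cell receptor, was found in 13 of 54 and 16 of 55 control Tregs but in 2 of 103 and 1 of 65 tumor Tregs. The control Tregs with Trdc were deep, at medians of 17938 and 17482.5 UMIs against 6845 and 6486 UMIs in those without, and the doublet caller marked 4 of the 13 and 5 of the 16 against 1 and 0 of the others. They still held Ikzf2 in 92.3 and 87.5% of cells, against 95.1 and 92.3% of those without Trdc. Ctla4, Il2ra and Cd4 were less often detected in them despite their depth. In control replicate 2 the shares of Il2ra and Cd4 were close. A Ctla4 UMI was held by 61.5 and 93.75% against 95.1 and 100%, and Il2ra by 76.9 and 93.75% against 92.7 and 94.9%. For Cd4 the shares were 23.1 and 56.25% against 43.9 and 59.0%. Tnfrsf18 went the other way, at 69.2 and 87.5% against 65.9 and 66.7%. Izumo1r was mixed, at 23.1 and 0% against 9.76 and 17.9%. γδ T cells were 25.7 and 25.7% of the filtered cells in the controls and 0.706 and 1.54% in the tumors. Values of the main comparison are therefore also given without the 32 Tregs that held a Trdc UMI, an alternative chosen after the data were seen, for most of the genes described that could then be tested. RNA of the Langerhans cell marker Cd207 fell likewise, from 369 and 42.7 CPM in control Tregs to 0 in both tumor libraries.

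Tregs were a small share of all immune cells in every library. They made up 1.73% (95% exact binomial interval 1.31 to 2.26) and 1.72% (1.30 to 2.24) of the filtered cells of the controls, and 2.14% (1.75 to 2.59) and 3.24% (2.51 to 4.11) of those of the tumors. Both tumors lay above both controls, and the intervals, which cover counting error only, overlapped for tumor replicate 1. The edgeR quasi-likelihood test on cell numbers gave a log2 difference of 0.63 ± 0.68 (SE, adjusted p = 0.463), or 1.05 ± 0.69 (SE, adjusted p = 0.218) without the Trdc cells, and 28.6% of the 14 cell gates tested passed 0.05.

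The share depended on the cells it was set against. Of all CD3 cells, Tregs were 3.65 and 4.42% in the controls and 11.2 and 17.2% in the tumors, a log2 difference of 1.80 ± 0.50 (SE, adjusted p = 0.00699). γδ T cells, which fell by 4.56 on the log2 scale among all filtered cells (adjusted p = 1.41e-06), are part of that denominator. Foxp3-negative CD4 T cells were gated by the same limits on CD3, CD8, Csf1r and cycling genes, with no Foxp3 UMI, at least 1 Cd4 UMI and no Trdc UMI. Of these and Tregs together, Tregs were 41.5 and 59.1% in the controls and 41.2 and 39.4% in the tumors. Both tumors lay below both controls, but the interval of control replicate 1 (33.0 to 50.5%) held both tumor values, and this share was not tested. The gates were unlike, since a Treg needed no Cd4 UMI and could hold a Trdc UMI. The sort kept CD45+ cells only, so none of these shares is a density in tissue.

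**Figure D1:**
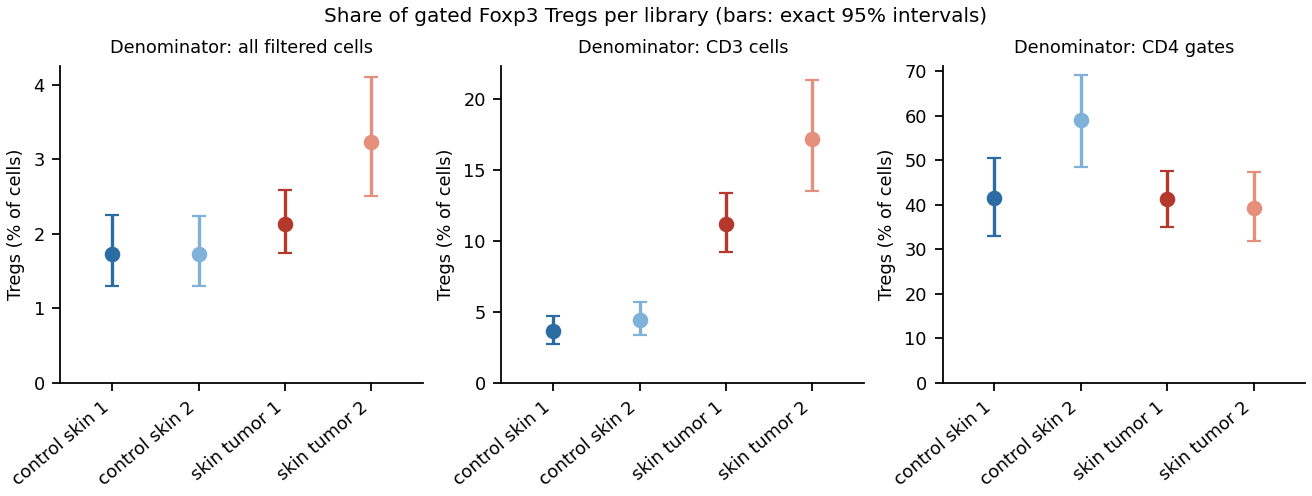
Tregs as a percentage of all filtered cells, of CD3 cells and of the CD4 gates (Tregs plus Foxp3-negative CD4 T cells) in each library, with 95% exact binomial intervals as bars. The tumor libraries lie above the controls among CD3 cells (11.2 and 17.2% against 3.65 and 4.42%), while the intervals of the shares among CD4 T cells overlap between control skin 1 and both tumors.

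The question of the main comparison was how Tregs of the tumors differ from Tregs of normal skin. Summed over Tregs, the libraries held 597512 and 581709 UMIs in the controls and 744678 and 571916 UMIs in the tumors. A sum counts each cell by its UMIs, and the control Tregs with Trdc were deep. Their medians were 17938 and 17482.5 UMIs, against 6845 and 6486 UMIs in control Tregs without. These cells thus weigh more in the control sums than their number shows, and their part was not computed. Of 6674 genes tested, 384 (5.75%) passed an adjusted p of 0.05, of which 151 (2.26%) were higher and 233 (3.49%) lower in tumor Tregs. Without the Trdc cells 90 of 5744 genes passed (1.57%), 61 (1.06%) higher and 29 (0.505%) lower. Of the 233 lower genes, 185 stood at a higher mean CPM in control γδ T cells than in control Tregs, 140 could be tested without the Trdc cells, 120 of these kept their sign, and 25 passed again. Of the 151 higher genes, 147 could be tested, all of these kept their sign, and 48 passed again. Without tumor replicate 1 no gene of 7363 passed by edgeR, and 1030 had an unadjusted p under 0.05.

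**Figure D2:**
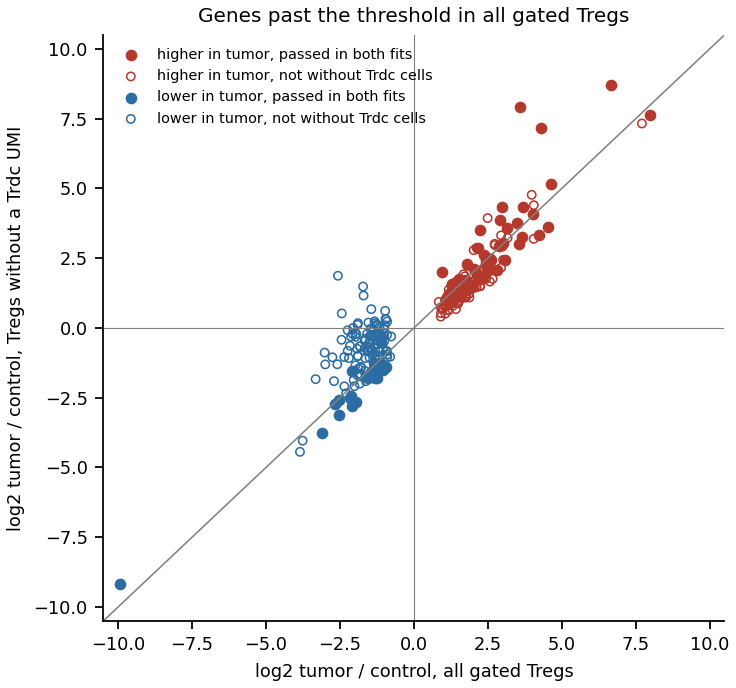
Each point is a gene that passed with all gated Tregs and could be tested in both fits, placed by its tumor over control log2 difference with all Tregs (x axis) and without the Tregs that held a Trdc UMI (y axis). Filled points passed in both fits and the diagonal marks equal values: higher genes (red) stay near it, with a median of 1.52 without those Tregs, and many lower genes (blue) lie nearer 0, with a median of -0.82.

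Among genes of Treg identity, those that passed the test encode surface proteins. Of 14 tested, 2 were higher (Izumo1r and Lrrc32) and 2 lower (Il2ra and Itgae), beside 2.26 and 3.49% of all genes. Without the Trdc cells 1 of 13 was higher and 2 lower, beside 1.06 and 0.505% of all genes. Il2ra (ENSMUSG00000026770, GRCm38 chromosome 2:11642807-11693193), the high-affinity chain of the interleukin 2 receptor, stood at 1077 and 812 CPM in control Tregs and 493 and 414 CPM in tumor Tregs, a log2 difference of -1.06 ± 0.22 (SE, adjusted p = 0.0386). The Il2ra groups did not overlap, and without the Trdc cells the difference was -1.49 (adjusted p = 0.0344). Izumo1r (ENSMUSG00000031933, GRCm38 chromosome 9:14885814-14903949), which encodes folate receptor 4, a surface protein of Tregs, rose from low levels, at 12.3 and 17.8 CPM in control Tregs and 135 and 124 CPM in tumor Tregs, a log2 difference of 3.09 ± 0.32 (SE, adjusted p = 0.00586). Lrrc32, which encodes GARP, the surface docking protein for latent TGF-β, stood at 58.2 and 33.8 CPM in control Tregs and 190.4 and 148 CPM in tumor Tregs, a log2 difference of 1.88 ± 0.31 (SE, adjusted p = 0.0219). Both tumors were above both controls for Izumo1r and Lrrc32. Izumo1r kept 2.43 (adjusted p = 0.0294) and Lrrc32 gave 1.09 (adjusted p = 0.117) without the Trdc cells.

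Ikzf2, Ctla4, Tnfrsf18 and Cd4, also used to recognise Tregs, did not pass the test. Ikzf2 stood at 3668 and 3099.9 CPM in control Tregs and 5134 and 4103 CPM in tumor Tregs, a log2 difference of 0.45 ± 0.27 (SE, adjusted p = 0.377). Ctla4 stood at 2121 and 2528 CPM in control Tregs and 1378 and 1744 CPM in tumor Tregs, a log2 difference of -0.57 ± 0.24 (SE, adjusted p = 0.213). The tumor values lay on one side of the control values in each of these genes. Tnfrsf18, which encodes the costimulatory receptor GITR, stood at 284 and 316 CPM in control Tregs and 610.0 and 421 CPM in tumor Tregs, a log2 difference of 0.78 ± 0.23 (SE, adjusted p = 0.101). Cd4, the coreceptor, stood at 72.3 and 105 CPM in control Tregs and 158 and 214 CPM in tumor Tregs, a log2 difference of 1.07 ± 0.27 (SE, adjusted p = 0.0698). With the Trdc cells left out, the differences were -0.049 (adjusted p = 0.966) for Ikzf2, -1.06 (adjusted p = 0.122) for Ctla4, 0.43 (adjusted p = 0.488) for Tnfrsf18 and 0.69 (adjusted p = 0.241) for Cd4. The list of costimulators holds Tnfrsf18 and other TNF receptors and also Icos, Cd28 and the adaptor Traf1. Of 12 genes tested on it, none passed by edgeR or DESeq2, beside 5.75% of all genes by edgeR. Of the 12, 2 had an unadjusted p under 0.05 by edgeR, beside 1482 of all 6674 genes.

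Il1rl1 and Itgae, which skin Tregs often carry, were lower in tumor Tregs. Il1rl1 (ENSMUSG00000026069, GRCm38 chromosome 1:40429570-40465415), the interleukin 33 receptor, stood at 432 and 432 CPM in control Tregs and 185 and 178 CPM in tumor Tregs, a log2 difference of -1.25 ± 0.18 (SE, adjusted p = 0.0131). Itgae (ENSMUSG00000005947, GRCm38 chromosome 11:73090583-73147446), the CD103 chain that binds E-cadherin, stood at 615 and 542 CPM in control Tregs and 268 and 207 CPM in tumor Tregs, a log2 difference of -1.28 ± 0.21 (SE, adjusted p = 0.0197). Groups did not overlap for either gene. Without the Trdc cells Il1rl1 gave -1.79 (adjusted p = 0.016) and Itgae -1.59 (adjusted p = 0.0173). By edgeR Itgae was also lower in tumors in Foxp3-negative CD4 T cells (-2.44, adjusted p = 0.0126) and in CD8 T cells (-5.42, adjusted p = 0.000225). Il1rl1 gave 0.009 (adjusted p = 0.997) in Foxp3-negative CD4 T cells. With every cell thinned to 1000 UMIs, Il1rl1 was detected in 40.7 and 32.7% of control Tregs and in 16.5 and 7.69% of tumor Tregs. Itgae was detected in 50 and 38.2% of control Tregs and in 20.4 and 10.8% of tumor Tregs at that depth, and Il2ra in 51.9 and 52.7% of control Tregs and in 35.9 and 30.8% of tumor Tregs. At full depth Itgae was detected in 92.6 and 92.7% of control Tregs and in 49.5 and 50.8% of tumor Tregs.

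RNA of these genes was also found outside T cells, and a larger share of macrophages held it in both controls than in either tumor. An Itgae UMI was held by macrophages at shares of 44.3 and 37.2% in the controls and 4.65 and 9.19% in the tumors at full depth, and of 4.76 and 5.18% in the controls and 0.228 and 0.766% in the tumors at 1000 UMIs. For Il1rl1 the macrophage shares were 15 and 13.2% in the controls and 2 and 6.56% in the tumors at full depth, and 0.733 and 1.15% in the controls and 0.273 and 0.547% in the tumors at 1000 UMIs. Summed over all filtered cells, Itgae stood at 224 and 177 CPM in the controls and 19.7 and 21.1 CPM in the tumors, and Il1rl1 at 21 and 17.5 CPM in the controls and 9.49 and 20.9 CPM in the tumors. Il2ra was held by 19.8 and 17.3% of macrophages in the controls and 3.19 and 14.2% in the tumors at full depth. Over all filtered cells it stood at 88.2 and 69.0 CPM in the controls and 26.6 and 42.8 CPM in the tumors. The part of RNA from other cells in the falls of Itgae, Il1rl1 and Il2ra was not tested.

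Most other genes of effector and tissue Tregs did not pass the test. Of the 19 tested, only Bhlhe40 was higher and Il1rl1 and Itgae lower, beside 2.26 and 3.49% of all genes. Bhlhe40, a transcriptional repressor induced by T cell activation, stood at 113 and 87.1 CPM in control Tregs and 393 and 293 CPM in tumor Tregs, a log2 difference of 1.78 ± 0.24 (SE, adjusted p = 0.0108), and gave 2.28 (adjusted p = 0.016) without the Trdc cells. Areg, which encodes the repair factor amphiregulin, stood at 956 and 1070.0 CPM in control Tregs and 679 and 781 CPM in tumor Tregs (adjusted p = 0.215). Ccr8, a chemokine receptor of skin and tumor Tregs, stood at 74.1 and 39.1 CPM in control Tregs and 69.5 and 46.8 CPM in tumor Tregs (adjusted p = 0.962). Both genes were named after their values were seen, and Areg was lower in both tumors without passing the test, while Ccr8 overlapped. Cd44, an adhesion receptor of activated T cells, stood at 815 and 915 CPM in control Tregs and 406 and 556 CPM in tumor Tregs, a log2 difference of -0.85 ± 0.22 (SE, adjusted p = 0.071), and gave -0.80 (adjusted p = 0.159) without the Trdc cells.

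**Figure D3:**
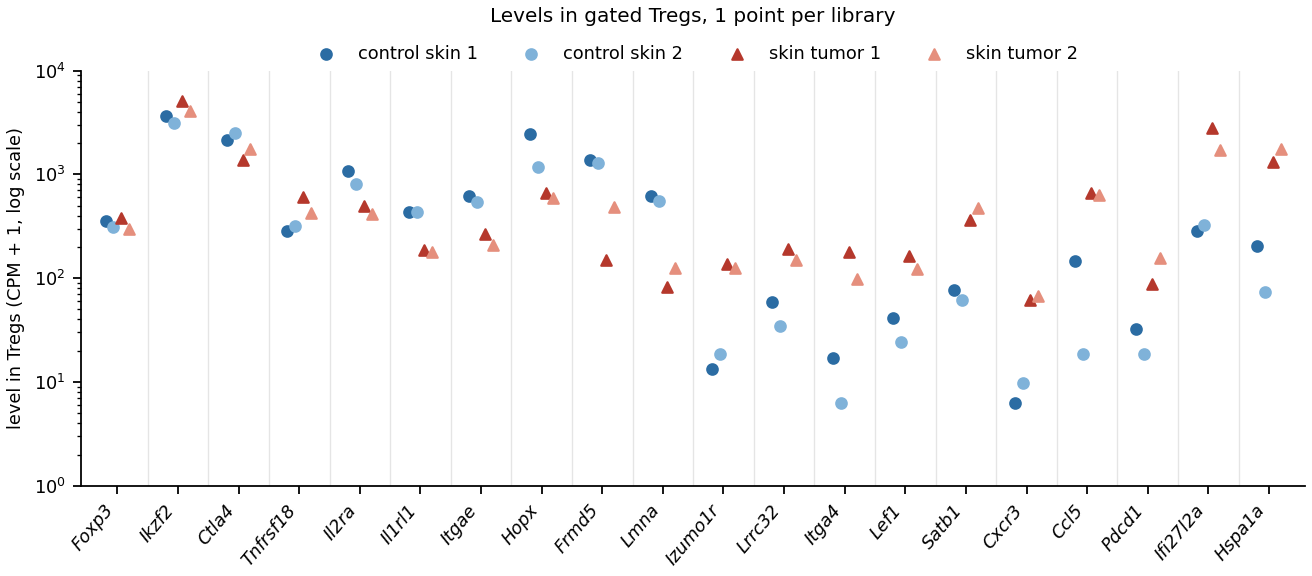
Levels of 20 genes in the summed Tregs of each library (y axis, CPM + 1 on a log scale), with circles for the 2 control skins and triangles for the 2 tumors. Il2ra, Il1rl1 and Itgae are lower in both tumors and Izumo1r, Lrrc32, Itga4, Lef1, Satb1 and Cxcr3 higher, Foxp3 overlaps, and Hopx, Frmd5 and Lmna were added after their values were seen.

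Genes of circulating and central T cells were higher in tumor Tregs in part. Of 13 tested on that list, 3 were higher, Satb1 and Lef1 among them, and none lower, beside 2.26 and 3.49% of all genes. Over the list, 6 of 13 differences were positive, with a median of -0.043. Without the Trdc cells 8 of 12 were positive, with a median of 0.76, and 2 were higher, beside 1.06% of all genes. Without tumor replicate 1 the median was 0.26. Tcf7, a partner factor of Lef1 named after its value was seen, stood at 37 and 24.9 CPM in control Tregs and 9.73 and 23.4 CPM in tumor Tregs (adjusted p = 0.346). Satb1 (ENSMUSG00000023927, GRCm38 chromosome 17:51736187-51833290), a chromatin organiser of T cells, stood at 75.8 and 60.4 CPM in control Tregs and 359.9 and 477 CPM in tumor Tregs, a log2 difference of 2.61 ± 0.24 (SE, adjusted p = 0.00586). Lef1 (ENSMUSG00000027985, GRCm38 chromosome 3:131110471-131224356), a transcription factor of naive and central T cells, stood at 40.6 and 23.1 CPM in control Tregs and 163 and 121 CPM in tumor Tregs, a log2 difference of 2.15 ± 0.34 (SE, adjusted p = 0.0185). All tumor values lay above all control values for both genes. Satb1 gave 2.43 (adjusted p = 0.00824) and Lef1 1.88 (adjusted p = 0.0294) without the Trdc cells. Ccr7, a lymph node homing chemokine receptor, stood at 157 and 116 CPM in control Tregs and 509.9 and 241 CPM in tumor Tregs, a log2 difference of 1.47 ± 0.36 (SE, adjusted p = 0.0617), gave 1.20 (adjusted p = 0.156) without them, and passed by DESeq2 (adjusted p = 0.0113).

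Detection in single cells followed the summed levels. At 1000 UMIs per cell, Satb1 was detected in 1.85 and 3.64% of control Tregs and in 28.2 and 29.2% of tumor Tregs. Lef1 was detected in 0 and 1.82% of control Tregs and in 19.4 and 12.3% of tumor Tregs. Among macrophages at that depth, Satb1 was detected in 5.49 and 1.92% in the controls and 1.23 and 4.05% in the tumors, and Lef1 in 0 and 0% in the controls and 0.273 and 0.766% in the tumors. The shares of Satb1 in control Tregs lay within the range of these macrophage shares. A cell without a UMI may still express the gene.

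Among homing receptors, Itga4 and Cxcr3 were higher in tumor Tregs. Itga4 (ENSMUSG00000027009, GRCm38 chromosome 2:79255426-79333123), the α4 integrin chain that binds VCAM-1 and fibronectin, stood at 15.9 and 5.33 CPM in control Tregs and 179 and 97.2 CPM in tumor Tregs, a log2 difference of 3.69 ± 0.51 (SE, adjusted p = 0.0124). Over all filtered cells Itga4 also differed, at 44.8 and 52.7 CPM in the controls and 170.4 and 128 CPM in the tumors, and its part in the Treg values was not tested. Cxcr3 (ENSMUSG00000050232, GRCm38 chromosome X:101731535-101734269), the receptor for interferon-induced chemokines, stood at 5.29 and 8.89 CPM in control Tregs and 61.1 and 66.6 CPM in tumor Tregs, a log2 difference of 3.13 ± 0.42 (SE, adjusted p = 0.0108). Of 15 genes tested on the list of chemokine receptors, which also holds the lipid receptors S1pr1, S1pr4 and Gpr183, Cxcr3 alone passed, a share near that of all genes (5.75%). Itga4 gave 4.32 (adjusted p = 0.016) and Cxcr3 3.57 (adjusted p = 0.0233) without the Trdc cells. By edgeR Itga4 also rose in Foxp3-negative CD4 T cells (4.22, adjusted p = 0.0192) and in CD8 T cells (2.25, adjusted p = 0.0116). Cxcr3 did not rise there, at -0.62 (adjusted p = 0.428) and -1.76 (adjusted p = 0.0174) in turn. Ly6a, which encodes the interferon-inducible surface protein Sca-1, stood at 190.4 and 204 CPM in control Tregs and 599 and 489.6 CPM in tumor Tregs, a log2 difference of 1.46 ± 0.20 (SE, adjusted p = 0.0108), and gave 1.13 (adjusted p = 0.0571) without the Trdc cells. Ly6a also rose by edgeR in Foxp3-negative CD4 T cells (1.92, adjusted p = 0.0172) and in CD8 T cells (1.78, adjusted p = 0.0157).

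Of 18 suppressive effectors tested, 2 were higher (Lrrc32 and Pdcd1) and 1 lower (Prf1), beside 2.26 and 3.49% of all genes. None of 17 passed by edgeR without the Trdc cells, where 3 had an unadjusted p under 0.05, beside 893 of all 5744 genes. Pdcd1, which encodes the inhibitory receptor PD-1, stood at 31.7 and 17.8 CPM in control Tregs and 87.5 and 155 CPM in tumor Tregs, a log2 difference of 2.27 ± 0.42 (SE, adjusted p = 0.0267). Pdcd1 gave 1.82 (adjusted p = 0.186) without the Trdc cells. Btla, another inhibitory receptor, stood at 17.6 and 12.4 CPM in control Tregs and 84.8 and 73.8 CPM in tumor Tregs, a log2 difference of 2.39 ± 0.35 (SE, adjusted p = 0.0151), and gave 1.78 (adjusted p = 0.0668) without those cells. Il10, which encodes the suppressive cytokine interleukin 10, stood at 132 and 110.2 CPM in control Tregs and 125 and 238 CPM in tumor Tregs (adjusted p = 0.36), and Gzmb, which encodes granzyme B, at 596 and 588 CPM in control Tregs and 425 and 709 CPM in tumor Tregs (adjusted p = 0.921). Il10 and Gzmb, named after their values were seen, overlapped between the groups. Prf1, which encodes the pore-forming protein perforin, fell from 68.8 and 105 CPM to 19.5 and 21.6 CPM, but was too low to test without the Trdc cells, and it stood at 208 and 226 CPM in control γδ T cells.

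Of 8 T cell cytokine and chemokine genes tested, Ccl5 and Ltb were higher and none lower, beside 2.26 and 3.49% of all genes. Ccl5, a chemokine for T cells and macrophages, stood at 146 and 17.8 CPM in control Tregs and 661 and 634 CPM in tumor Tregs, a log2 difference of 2.98 ± 0.64 (SE, adjusted p = 0.0424). Ccl5 gave 4.34 (adjusted p = 0.000914) without the Trdc cells, and by DESeq2 its call was lost, at 2.97 (adjusted p = 0.213). Ltb, which encodes lymphotoxin β, stood at 164 and 128 CPM in control Tregs and 518 and 421 CPM in tumor Tregs, a log2 difference of 1.69 ± 0.22 (SE, adjusted p = 0.00962), and gave 1.24 (adjusted p = 0.0516) without those cells. Control replicate 1 held more Ccl5 than control replicate 2, but less than either tumor. Summed over all filtered cells, Ccl5 stood at 173 and 57.4 CPM in the controls and 527 and 498 CPM in the tumors, and the part of RNA from other cells in its rise was not tested.

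Among lineage transcription factors, Tbx21 was also higher, beside Satb1 and Lef1, and Runx3 was lower, of 25 tested, beside 2.26 and 3.49% of all genes. Tbx21, which encodes the Th1 factor T-bet, stood at 14.1 and 10.7 CPM in control Tregs and 51.4 and 103 CPM in tumor Tregs, a log2 difference of 2.60 ± 0.48 (SE, adjusted p = 0.0276), and gave 2.50 (adjusted p = 0.0937) without the Trdc cells. Runx3, a factor of cytotoxic and γδ T cells, stood at 545 and 455 CPM in control Tregs and 181 and 196 CPM in tumor Tregs, and gave -0.30 (adjusted p = 0.707) without them. Cd3e, a gene of the rule, stood at 451 and 479.9 CPM in control Tregs and 263 and 221 CPM in tumor Tregs, and its control levels were far higher in γδ T cells, at 1107 and 1107 CPM. The immediate early gene Fosb, often induced by tissue digestion, stood at 213 and 155 CPM in control Tregs and 22.2 and 19.8 CPM in tumor Tregs, and was the only one of 20 such genes that passed, a share near that of all genes (5.75%). Fosb was too low to test without the Trdc cells, where 1 of 18 such genes was higher and none lower, beside 1.06 and 0.505% of all genes. Of 22 genes of glycolysis and hypoxia, none passed by edgeR and 1 by DESeq2, beside 5.75% of all genes by edgeR. Of these 22, 4 had an unadjusted p under 0.05 by edgeR, beside 1482 of all 6674 genes. Of 22 genes of the interleukin 2 and STAT pathways, Il21r was higher (1.17 on the log2 scale, adjusted p = 0.0376) and Il2ra lower, beside 2.26 and 3.49% of all genes, and the call of Il21r was lost without the Trdc cells, at 0.63 (adjusted p = 0.301).

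Heat shock genes were higher in tumor Tregs in part. Of 12 tested, 8 were higher and none lower, beside 2.26 and 3.49% of all genes. The median log2 difference was 2.16 against 0.01 over all genes. Of the 12, 11 had a positive difference, and Hspa5 gave -0.76 (adjusted p = 0.092). Without the Trdc cells 8 of 12 were higher, beside 1.06% of all genes, with a median of 2.29. Without tumor replicate 1 the median was 2.30. Hspa1a, an inducible HSP70 chaperone, stood at 201 and 72.9 CPM in control Tregs and 1300.5 and 1748 CPM in tumor Tregs, a log2 difference of 3.47 ± 0.44 (SE, adjusted p = 0.00889). Hsp90aa1, the inducible HSP90 chaperone, stood at 679 and 558 CPM in control Tregs and 2905 and 3526 CPM in tumor Tregs, a log2 difference of 2.38 ± 0.25 (SE, adjusted p = 0.00586). Hsph1, a cochaperone of HSP70, stood at 132 and 65.8 CPM in control Tregs and 635 and 875 CPM in tumor Tregs, a log2 difference of 2.93 ± 0.34 (SE, adjusted p = 0.00686). Both tumors were above both controls in each. Hspd1 and Hspe1, the mitochondrial chaperonin pair, differed by 2.45 on the log2 scale, adjusted p = 0.0064 and 2.14 on the log2 scale, adjusted p = 0.00762. With the Trdc cells left out, the differences were 3.77 (adjusted p = 0.00377) for Hspa1a, 2.63 (adjusted p = 0.00985) for Hsp90aa1, 3.86 (adjusted p = 0.00377) for Hsph1, 2.29 (adjusted p = 0.00824) for Hspd1 and 1.91 (adjusted p = 0.0171) for Hspe1.

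The rise in heat shock genes was not found in Tregs alone. In Foxp3-negative CD4 T cells 11 of 12 were higher (2.30% of all genes, median 2.47), and in CD8 T cells 7 of 12 (2.37% of all genes, median 1.49). Over all filtered cells the 12 genes summed to 8476, 7012, 17024 and 18490 CPM in the controls and tumors in turn, and to 5798, 4554, 13364 and 17236 CPM in Tregs. The part of cell handling or of RNA from other cells in the Treg values was not tested.

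Heat shock factors bind repeats of a short element, which was searched for in promoters. The letters GAANNTTC, which read the same on both strands, were found in 6.69% of 32851 promoter windows of RefSeq (GRCm38.p6), each the 250 bases before a start site, in 6 of the 14 windows of the listed heat shock genes, and in 5 of the 10 windows of the called ones. Of the 8 called genes, 6 were in that table, and a match was found for Dnaja1, Hspa1a, Hspa1b, Hspd1 and Hspe1 but not for Hsph1. These windows are not independent, since Hspa1a and Hspa1b are near copies and a window of Hspd1 overlaps that of Hspe1. The windows of Hspa1a (chr17:34972157-34972406 on the minus strand) and Hspe1 (chr1:55087898-55088147 on the plus strand) are shown because these genes stand for the inducible and the mitochondrial chaperones, 5′ to 3′ along the gene, with the matching letters in capitals.
Hspa1a: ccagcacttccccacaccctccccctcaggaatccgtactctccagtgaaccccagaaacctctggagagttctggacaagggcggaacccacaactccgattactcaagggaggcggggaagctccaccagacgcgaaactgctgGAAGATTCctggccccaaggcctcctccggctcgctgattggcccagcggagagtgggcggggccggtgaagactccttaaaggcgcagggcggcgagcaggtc
Hspe1: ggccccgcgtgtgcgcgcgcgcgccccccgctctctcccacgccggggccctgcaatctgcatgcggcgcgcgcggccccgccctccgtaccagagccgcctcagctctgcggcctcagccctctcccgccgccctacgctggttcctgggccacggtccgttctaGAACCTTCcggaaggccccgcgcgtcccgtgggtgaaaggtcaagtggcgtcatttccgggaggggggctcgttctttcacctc
A match describes the letters only and is not evidence that a factor was bound.

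Interferon response genes were higher in tumor Tregs in part. Of 35 tested, 11 were higher and none lower, beside 2.26 and 3.49% of all genes, and 34 had a positive difference, with a median log2 difference of 1.27 against 0.01 over all genes. Ifi27l2a, an interferon-induced gene, stood at 284 and 327 CPM in control Tregs and 2816 and 1716 CPM in tumor Tregs, a log2 difference of 2.89 ± 0.30 (SE, adjusted p = 0.00586). Ifit1, an antiviral RNA-binding protein, rose from near 0, at 8.82 and 3.55 CPM in control Tregs and 66.7 and 86.4 CPM in tumor Tregs, a log2 difference of 3.58 ± 0.47 (SE, adjusted p = 0.0102). Psmb9, a subunit of the immunoproteasome, stood at 49.4 and 26.7 CPM in control Tregs and 203 and 153 CPM in tumor Tregs, a log2 difference of 2.22 ± 0.33 (SE, adjusted p = 0.0157). Both tumors were above both controls in each. Iigp1, an interferon-γ-induced GTPase, stood at 40.6 and 16 CPM in control Tregs and 201 and 135 CPM in tumor Tregs, a log2 difference of 2.57 ± 0.42 (SE, adjusted p = 0.0201), and gave 1.66 (adjusted p = 0.0935) without the Trdc cells. Of the 35, 3 passed without those cells (Ifi27l2a at 2.94 (adjusted p = 0.00824), Psmb9 at 1.82 (adjusted p = 0.0433), and Ifit1), beside 1.06% of all genes higher, with a median of 1.15, and without tumor replicate 1 none passed, with a median of 1.13. In Foxp3-negative CD4 T cells 9 of 35 were higher, beside 2.30% of all genes, and in CD8 T cells 21 of 36, beside 2.37%. Summed over all filtered cells, the genes of the list stood at 2770.1, 3142, 8934 and 7138 CPM in the controls and tumors in turn, against 4091, 3818, 10319 and 8178 CPM in Tregs, and the part of RNA from other cells was not tested.

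The interferon-stimulated response element, searched as GAAA followed by GAAA after any 2 bases (on the other strand TTTC likewise), was found in 2.98% of the promoter windows. Of all listed interferon genes, 29 were in the table and 18 of these held it, in 18 of 35 windows. Of the called ones, 5 were in the table and 1 held it, Ifit1 (chr19:34640639-34640888 on the plus strand), whose window is shown for that reason.
Ifit1: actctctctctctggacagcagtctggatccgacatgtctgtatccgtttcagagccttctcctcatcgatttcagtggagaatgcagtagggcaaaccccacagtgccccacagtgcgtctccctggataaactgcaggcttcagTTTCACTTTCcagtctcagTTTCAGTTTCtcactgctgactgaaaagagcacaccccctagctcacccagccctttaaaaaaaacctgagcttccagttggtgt
The capitals mark the matching letters, and no match in another window says only that these letters were not in it.

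**Figure D4:**
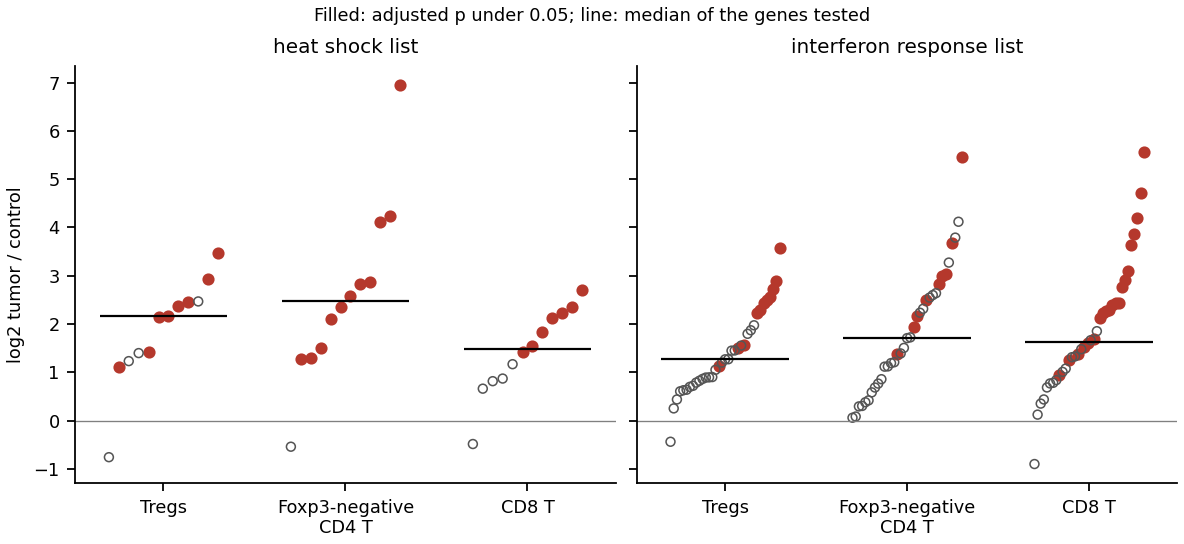
Tumor over control log2 difference (y axis) of each tested gene of the heat shock and interferon response lists in Tregs, Foxp3-negative CD4 T cells and CD8 T cells, with filled points for an adjusted p under 0.05 and a line at the median of the genes tested. The medians lie above 0 in all 3 gates, at 2.16 and 1.27 in Tregs.

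Outside the lists, the largest rises among genes at least as high in Tregs as in all cells were in genes almost absent from control Tregs. The rule ranked genes by fold, which favors genes near 0 in the controls. Genes with 0 UMIs there passed the count filter through the tumors alone, so their absence there is no separate result. Tshz2, a zinc finger transcription factor, had 0 UMIs in the controls and 67 in the tumors, at least 20-fold higher against a floor of 3 UMIs over the group. Serpina3g, a serine protease inhibitor of activated T cells, had 1 UMI against 141, a ratio of 126 (counting interval 22.3 to 5023). Gimap7, a GTPase of the immunity-associated family, stood at 14.1 and 3.55 CPM in control Tregs and 251 and 166 CPM in tumor Tregs, a log2 difference of 4.53 ± 0.48 (SE, adjusted p = 0.00605), and gave 3.62 (adjusted p = 0.0171) without the Trdc cells. Dusp14, a phosphatase that restrains T cell receptor signaling, had 3 UMIs against 69, a ratio of 20.6 (6.76 to 102), and Ddx60, an antiviral helicase, 3 against 93, a ratio of 27.8 (9.21 to 137). Asb2 had 0 UMIs against 57 (at least 17.0-fold), Ccdc184 1 against 29 and Arl14ep 2 against 50. With the Trdc cells left out, the adjusted p was 0.0222 for Tshz2, 0.00824 for Serpina3g, 0.0388 for Dusp14, 0.0396 for Ddx60, 0.0498 for Arl14ep and 0.0519 for Asb2, so Asb2 lost its call. That fit reuses the remaining cells, so it is not independent of the main one. Ccdc184 could not be tested without those cells, and by DESeq2 its call was lost (adjusted p = 0.125).

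The largest falls by the same rule were mostly in genes that were higher in γδ T cells than in Tregs. Mest fell from 218 UMIs to 0, Nrip3 from 137 to 0, Rapgef3 from 30 to 0 and Wscd1 from 24 to 0. Zmat4 fell from 408 to 2 UMIs, Arap3 from 78 to 1 and Zdbf2 from 50 to 1. In γδ T cells of control replicate 1, Mest stood at 442 CPM and Zmat4 at 882 CPM, above the 132 and 376 CPM of control Tregs of that library. The mean over both controls was higher in γδ T cells for all 8 but Nrip3, which stood at 30 and 213 CPM in control Tregs and 59.5 and 98.4 CPM in control γδ T cells. Acpp, an acid phosphatase, stood at 243 and 121 CPM in control Tregs and 5.56 and 3.6 CPM in tumor Tregs. None of these 8 genes could be tested without the Trdc cells, so they are not called changes of Tregs here.

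Markers of other cells were measured in the summed Tregs. The 9 macrophage markers summed to 455, 537, 711 and 1382 CPM in control replicates 1 and 2 and tumor replicates 1 and 2 in turn, led by Lyz2. None of the 7 tested passed by edgeR, where 4 had an unadjusted p under 0.05, beside 1482 of all 6674 genes. By DESeq2 C1qb and C1qc passed (adjusted p = 0.0243 and 0.042). The 7 Langerhans and dendritic cell markers summed to 6648, 3633, 2644 and 3909.9 CPM, led by Cd74, and only Cd207 of 6 passed, beside 5.75% of all genes. The 8 γδ T, NK and ILC2 markers found summed to 689, 567, 18.1 and 140.4 CPM, led by Trdc, with Trdc and Tcrg-C1, both tested, lower in tumors by edgeR but not by DESeq2 (adjusted p = 0.0824 and 0.305). The 6 neutrophil and mast cell markers summed to 515, 418, 269.5 and 286 CPM and single genes followed the replicate number in both groups, with Mcpt4 at 365, 1.78, 210 and 1.80 CPM and S100a8 at 1.76, 151, 2.78 and 82.8 CPM. No B cell, keratinocyte or collagen marker could be tested, and Krt1 and Col1a1 were at 0. The part of this RNA in the other results was not tested.

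To see what sets Tregs apart from other CD4 T cells of the same library, they were compared with 361 Foxp3-negative CD4 T cells over the 4 libraries. Of 7514 genes tested, 571 (7.6%) passed, of which 332 (4.42%) were higher and 239 (3.18%) lower in Tregs. Cd4 and Trdc set the Foxp3-negative gate but not the Treg gate, and Tregs with undetected Foxp3 cannot be told apart from the other cells in it. An Ikzf2 UMI was found in 14.5 and 28.9% of the Foxp3-negative cells of the controls and in 51.0 and 54.0% of those of the tumors.

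Of 14 genes of Treg identity tested, 10 were higher in Tregs and 1 lower, and of 19 suppressive effectors 10 were higher and none lower, beside 4.42 and 3.18% of all genes. Ikzf2 stood at 3617, 3030.1, 5017 and 4034 CPM in Tregs and 172, 194, 963 and 861 CPM in Foxp3-negative CD4 T cells, a log2 difference of 3.25 ± 0.14 (SE, adjusted p = 7.78e-07). Il2ra stood at 1062, 794, 482 and 407 CPM in Tregs and 49.3, 170.2, 125 and 165 CPM in Foxp3-negative CD4 T cells, a log2 difference of 2.45 ± 0.28 (SE, adjusted p = 0.000364). Both were higher in Tregs in 4 of 4 libraries. Areg differed by 2.94 ± 0.20 (SE, adjusted p = 1.95e-05), Gzmb by 3.17 ± 0.16 (SE, adjusted p = 3.06e-06), Klrg1, an inhibitory receptor, by 3.99 ± 0.34 (SE, adjusted p = 6.44e-05) and Il10 by 2.68 ± 0.33 (SE, adjusted p = 0.000644), these 4 being named after their values were seen. Itgb8, the integrin chain that activates TGF-β, differed by 3.09 ± 0.28 (SE, adjusted p = 8.74e-05). Markers of other cells also differed. Of 5 neutrophil and mast cell markers tested, 4 were higher in Tregs and none lower, with a median of 4.49. Of 6 Langerhans and dendritic cell markers 1 was higher, and all 6 differences were positive, with a median of 0.82. Of 8 macrophage markers none was higher and 1 lower. The part of this RNA in the comparison was not tested.

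By the rule of largest differences, Ccr3, Frmd5, Bmyc and Ky led. Ccr3, a chemokine receptor for eotaxins, stood at 43.5, 43.4, 24.4 and 21.2 CPM in Tregs and 0, 0, 2.78 and 2.16 CPM in Foxp3-negative CD4 T cells. Frmd5, a membrane-linked cytoskeletal protein, stood at 1363, 1253, 147 and 474 CPM in Tregs and 0, 13.6, 37.9 and 64.7 CPM in Foxp3-negative CD4 T cells, a log2 difference of 5.25 ± 0.34 (SE, adjusted p = 1.42e-05). Ky differed by 4.57 ± 0.46 (SE, adjusted p = 0.000165) and Bmyc by 4.97 ± 0.49 (SE, adjusted p = 0.000233). The same rule also named Pls1, Laptm4b, Arhgef28 and Tpsb2, the last of which, a mast cell protease, stood at 17.4, 5.21, 81.5 and 1.77 CPM in Tregs and 0, 0, 1.85 and 1.08 CPM in Foxp3-negative CD4 T cells and could not be tested without the Trdc cells.

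Of 16 cytokine and chemokine genes tested, 7 were lower in Tregs and none higher, beside 3.18 and 4.42% of all genes. Ifng, which encodes interferon γ, stood at 0, 0, 14.9 and 28.3 CPM in Tregs and 86.2, 40.8, 219 and 175 CPM in Foxp3-negative CD4 T cells, a log2 difference of -5.81 ± 0.48 (SE, adjusted p = 9.27e-05). Ccl1, a chemokine for Ccr8, stood at 0, 0, 0 and 3.54 CPM in Tregs and 1.76, 17, 568 and 267 CPM in Foxp3-negative CD4 T cells, a log2 difference of -6.80 ± 0.94 (SE, adjusted p = 0.00194). Cd40lg, which encodes CD40 ligand and was named after its values were seen, stood at 8.69, 5.21, 14.9 and 30.1 CPM in Tregs and 313, 208, 137 and 83 CPM in Foxp3-negative CD4 T cells, a log2 difference of -3.75 ± 0.30 (SE, adjusted p = 5.13e-05). Tregs were lower in 4 of 4 libraries for each. Csf2, which encodes GM-CSF, differed by -4.71 ± 0.87 (SE, adjusted p = 0.00873), Pard3, a cell polarity protein, by -6.20 ± 0.52 (SE, adjusted p = 6.35e-05), Tnfsf4, which encodes OX40 ligand, by -4.61 ± 1.09 (SE, adjusted p = 0.0307), and Bicdl1 and Nsg2, named with AC124490.1 by the same rule, by -4.57 ± 0.57 (SE, adjusted p = 0.00113) and -4.16 ± 0.61 (SE, adjusted p = 0.00194). Tregs had no Ifng or Csf2 UMI in the controls and 27 and 17 in the tumors.

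**Figure D5:**
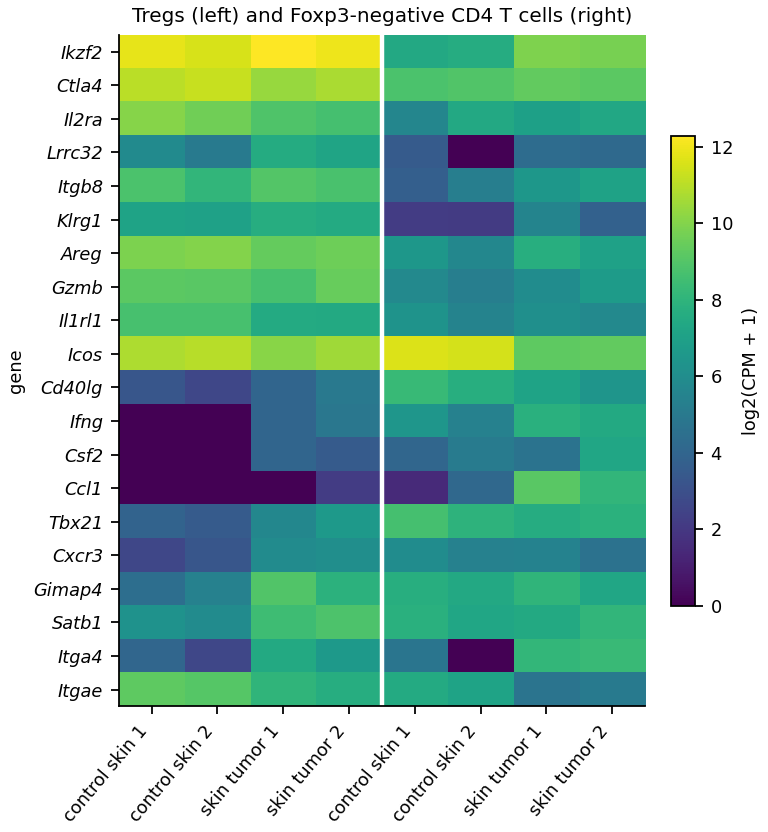
Heat map of log2(CPM + 1) for 20 genes (rows) in Tregs (left 4 columns) and Foxp3-negative CD4 T cells (right 4 columns), 1 column per library. Ikzf2 and Il2ra are higher in Tregs and Ifng and Cd40lg lower in every library, and Satb1 and Cxcr3 are higher in tumor Tregs than in control Tregs.

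The last comparison asked whether the tumor response of Tregs differed from that of Foxp3-negative CD4 T cells. The difference between both responses passed for 71 of 7514 genes (0.945%), with 36 (0.479%) more positive in Tregs and 35 (0.466%) less. Without the Trdc cells 113 of 7354 genes passed, 73 more positive and 40 less. Cxcr3 rose in Tregs but stood at 59.5 and 40.7 CPM in the controls and 42.8 and 23.6 CPM in the tumors in Foxp3-negative CD4 T cells, a difference in response of 3.79 ± 0.66 (SE, adjusted p = 0.0279). Tbx21 stood at 391 and 247 CPM in the controls and 193 and 229.9 CPM in the tumors there, a difference in response of 3.18 ± 0.43 (SE, adjusted p = 0.00786). Satb1, which was not on the list of largest differences but is described above, gave 2.36 ± 0.30 (SE, adjusted p = 0.00696). The responses of Tregs and of the other CD4 T cells thus differed for these genes. Gimap4, a lymphocyte GTPase, gave 3.39 ± 0.40 (SE, adjusted p = 0.00668) and Plcxd2 2.98 ± 0.38 (SE, adjusted p = 0.00696). Eml1 gave 4.78 ± 0.64 (SE, adjusted p = 0.00778) and Cd101, an inhibitory surface protein, 3.33 ± 0.49 (SE, adjusted p = 0.0125), although neither passed in Tregs alone.

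The difference in response was negative for other genes, among them some that rose in the Foxp3-negative cells and some that fell in Tregs. Ikzf2, which did not pass in Tregs, rose in Foxp3-negative CD4 T cells, from 172 and 194 CPM to 963 and 861 CPM, a difference in response of -1.88 ± 0.26 (SE, adjusted p = 0.00786). Frmd5 fell in Tregs by edgeR (adjusted p = 0.047) but not by DESeq2 (adjusted p = 0.127), and gave -5.59 ± 0.75 (SE, adjusted p = 0.00778). Tff1 and Sema7a were at 0 in the Foxp3-negative CD4 T cells of both controls and stood at 87.9 and 98.1 CPM and at 58.3 and 85.1 CPM in those of the tumors, while Treg levels of Tff1 were 79.4 and 60.4 CPM in control Tregs and 43.1 and 61.2 CPM in tumor Tregs. Ank3 was likewise at 0 in the Foxp3-negative cells of both controls, so the fitted folds of these 3 genes are no bounds. Nrgn and Cacnb2, the latter with 272 UMIs in control Tregs and 0 in tumor Tregs, were also named by the rule, but without the Trdc cells their adjusted p rose to 0.44 and 0.344. For Il1rl1, Itgae and Il2ra the difference in response was -1.23 ± 0.36 (SE, adjusted p = 0.164), 1.17 ± 0.33 (SE, adjusted p = 0.158) and -1.64 ± 0.55 (SE, adjusted p = 0.239), none of which passed. It passed for Il1rl1 once the Trdc cells were left out, at -1.81 (adjusted p = 0.0188), and not for Itgae or Il2ra, at 0.86 (adjusted p = 0.3) and -2.08 (adjusted p = 0.0815).

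The response was also set against that of 430 CD8 T cells, where the difference passed for 190 of 7388 genes (2.57%), with 100 (1.35%) more positive in Tregs and 90 (1.22%) less. Without the Trdc cells 83 of 7146 genes passed, 62 more positive and 21 less. Itgae gave 4.18 ± 0.32 (SE, adjusted p = 0.000408), where it stood at 407 and 404 CPM in CD8 T cells of the controls and at 8.73 and 10.9 CPM in those of the tumors. Itgae therefore fell in both gates, and by more in CD8 T cells. It was also lower in tumors in Foxp3-negative CD4 T cells (-2.44 by edgeR, adjusted p = 0.0126).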

How the data were processed

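CD45+ cells of 2 control skins and 2 skin tumors from the 2323 line were profiled by 10x Genomics 3′ sequencing. The authors deposited raw UMI counts per gene and barcode, aligned to mm10 with Cell Ranger 7.1.0 per the submitters' processing notes. Each library was deposited separately, and no columns of the authors' own comparisons were present. Cells with at least 1000 UMIs and at most 15% mitochondrial UMIs were kept (50932896, 52784293, 73904272 and 34893543 UMIs per library). Scrublet marked 1% of cells per 1000 as doublets, which were kept except in an alternative.

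UMIs of a gate were added up by library, and differences were fitted by the quasi-likelihood method of edgeR 4.0.16 after TMM scaling and filterByExpr, with Benjamini-Hochberg adjustment over all genes, with library terms where 2 gates were compared. The step was tested on simulated data. DESeq2 1.42.0, other filters and left-out libraries were alternatives. Named genes were those fixed for the study's T cell readouts, up to 4 with the lowest p per list with all that passed where these were at most 6, the 8 largest differences each way past 0.05 with both tumors on the same side and Treg CPM at least that of all cells, and up to 6 each way for the difference in response. The members and lists were chosen with earlier results of these data known. Gene positions came from GENCODE vM21. Some items that the rule names are not reported here.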

Additional observations from a re-analysis of the deposited data

Results flagged for a closer look

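The difference in tumor response between Tregs and Foxp3-negative CD4 T cells, on the log2 scale, was itself tested and passed for 12 genes named as the largest differences each way. It was positive for Eml1 (4.78), Cxcr3 (3.79), Gimap4 (3.39), Cd101 (3.33), Tbx21 (3.18) and Plcxd2 (2.98). It was negative for Tff1 (-9.46), Ank3 (-8.79), Sema7a (-8.33), Cacnb2 (-8.30), Nrgn (-5.88) and Frmd5 (-5.59). Other named genes also passed, among them Satb1 (2.36) and Ikzf2 (-1.88). Tff1, Ank3 and Sema7a were at 0 in Foxp3-negative CD4 T cells of both controls, and Cacnb2 was at 0 in the Tregs of both tumors, so the fitted values of these 4 genes are no bound. Cacnb2 and Nrgn lost the call without the Trdc cells.

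Signals also lay outside the gate. A Foxp3 UMI was seen in 8.64% of the macrophages of tumor replicate 2, against 1.05% in tumor replicate 1. Of Foxp3 CD3 cells with no CD8 and at most 1 Csf1r UMI in tumor replicate 1, 18.3% went over the limit on cycling genes and were left out of the Treg gate.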

How the results depend on the processing

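Of 384 genes that passed between tumor and control Tregs, the number was 314 by DESeq2, 962 with no filter on low counts, 156 with at least 2 Foxp3 UMIs per cell, 197 without doublets, 90 without the Trdc cells, 237 with equal numbers of Tregs per library, 55 with cells thinned to 1000 UMIs and 213 for genes at least as high in Tregs as over all cells. Leaving out 1 library gave 0 to 948 genes, 0 without tumor replicate 1 (edgeR, where 1030 genes had an unadjusted p under 0.05) and 948 without tumor replicate 2. For Tregs against Foxp3-negative CD4 T cells, 571 genes passed, and the number was 293 by DESeq2, 861 with no filter, and 539 to 953 with 1 library left out. For the difference in response from these cells, 71 passed, and the number was 271 with no filter, 45 with at least 2 Foxp3 UMIs, 113 without the Trdc cells and 156 to 374 with 1 library left out. DESeq2 also called 71 genes, and 41 of the edgeR calls were among them with the same sign. By DESeq2 66.2% of the calls were more positive in Tregs, against 50.7%. For the difference from CD8 T cells, 190 passed, and the number was 89 by DESeq2, 492 with no filter, 83 without the Trdc cells and 33 to 416 with 1 library left out. Without the Trdc cells, the share of calls that were higher in tumor Tregs was 67.8%, against 39.3%. The Treg share of T cells gave 1.80 against 0.63 for the share of all cells, 1.05 without the Trdc cells, and 0.31 to 0.90 with 1 library left out. The sign of Ikzf2 turned without the Trdc cells (-0.049). The causes were not tested.

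Replicate numbers were checked for pairing. The correlation over 6674 genes of the difference between replicates 1 and 2 in control and tumor Tregs was 0.046. The labels name no shared source, so the numbers were not taken to pair the samples. The mast cell and neutrophil markers Mcpt4, Cpa3, S100a8, S100a9 and Csf3r nevertheless followed the number. Counting error in genes of few UMIs lowers such a correlation, so it cannot decide whether same-numbered libraries shared a batch. With a replicate block 429 genes passed and the share difference was 0.60. The block gave a call to Cd4, Ccr7, Cd44, C1qa, C1qb and C1qc (adjusted p = 0.0336, 0.0128, 0.0485, 0.00868, 0.0264 and 0.0178).

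The sums rest on 54 to 103 Tregs per library and 2 libraries per group. With 2 against 2, an exact permutation test of a single value cannot go below 0.333, and tests across genes borrow the spread of other genes. Absence of a UMI in a cell is not absence of the RNA at these depths.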

Other observations

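Cycling cells were 11.5 and 6.78% of Foxp3 CD3 cells with no CD8 and at most 1 Csf1r UMI in the controls and 18.3 and 9.72% in the tumors, which overlapped between the groups. At full depth, Itgae without Itga4 was seen in 46 and 48 control Tregs and in 37 and 26 tumor Tregs, and Itga4 without Itgae in 0 control Tregs and in 22 and 10 tumor Tregs.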
